A study of Mus musculus with 27 samples.

Results

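Complement is a cascade of plasma proteins, most of them secreted by hepatocytes, that tags and lyses microbes and damaged cells. A lectin, a classical and an alternative route each build an enzyme that cleaves C3, and the terminal components then assemble into a pore, the membrane attack complex. Acetylation of histone H3 at lysine 27 (H3K27ac) and at lysine 9 (H3K9ac) marks active promoters, and H3K27ac also marks active enhancers. The acetyl groups come from acetyl-CoA, which ATP citrate lyase (ACLY) makes outside mitochondria.

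The values here concern 8 complement genes of hepatocytes, out of 21887 coding genes: Masp2, C4b, Cfb, C3, Hc, C8a, C8b and C9. They were chosen from the complement genes after the peak lists had been seen. The presence of a peak in these lists is therefore a description of the 8 genes, and no test was made of it. A gene was counted as having a peak where a deposited peak lay within its RefSeq gene or within 1 kb of it.

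The study used primary hepatocytes in CUT&RUN, in which an antibody directs DNA cutting to the sites that its target occupies. Wild-type hepatocytes (WT) were kept in normoxia or put through hypoxia-reperfusion (HR), a culture model of interrupted and restored oxygen supply. Hepatocytes labelled AclyKO, from Alb-cre:Aclyf/f mice (KO), were put through HR. In these mice Cre is driven by the albumin promoter and removes the floxed part of Acly in hepatocytes. The CUT&RUN samples include no KO cells in normoxia, so KO cells in HR have no KO baseline here. Culture in these conditions followed isolation by 24 hours. An anti-FLAG antibody for ACLY was used in WT normoxia and WT HR. The sources used here do not say how WT cells came to carry the tag. They also do not state the strain, age or number of mice. Each antibody and condition had 1 library, so no difference between conditions has a replicate check and none was tested.

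The 6 acetylation lists held 5655 to 14418 peaks. H3K27ac had 5655 peaks in WT normoxia, 8252 in WT HR and 14418 in KO HR, with median widths of 10340, 7410 and 3845 bp. H3K9ac had 6513, 7593 and 8837 peaks, with median widths of 7790, 6400 and 2961 bp. The FLAG list of WT normoxia held 1 peak and that of WT HR 3666. Peak edges lay on a grid of 10 bp for 99.98% to 100.0% of WT peaks and for 0.94% and 1.01% of KO peaks, so genotype and the way the lists were made cannot be told apart in any KO value below. The labelled cell type was checked against marker genes. H3K27ac lay at 6 of 8 hepatocyte markers in each condition (Alb, Apoa1, Ttr, Tat, Hnf4a and Fgb, but not Apoa2 or Serpina1a), at 0 of 5 stellate cell and 0 of 4 cholangiocyte markers, at 1 of 6 macrophage markers (Cd68) and at 2 of 5 endothelial markers (Stab2 and Lyve1). Of 5 lymphocyte and neutrophil markers, Cd79a alone had a peak, with H3K27ac in KO HR and H3K9ac in all 3 conditions. The RNA files of the 16 livers name transcripts and not genes, and the RNA of the 8 genes, and of Acly, was not analysed here.

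The promoters below belong to genes on which the results turn. C3, Hc and Masp2 had their start site inside a peak in all 6 acetylation lists, C9 in the KO H3K27ac list alone, and C8b in none. Of the 6 genes with a start site, H3K27ac peaks held 4 in WT normoxia, 4 in WT HR and 5 in KO HR, against 17.5%, 25.4% and 32.1% of all start sites. H3K9ac peaks held 3 in each condition, against 28.7%, 33.8% and 31.1%. Each line gives the 250 bases before the RefSeq start site, 5′ to 3′ on the gene's strand, from RefSeq's GRCm38.p6, the assembly that mm10 names. Capitals mark matches to the motifs searched. The intervals are chr17:57228137-57228386 on the minus strand for C3, chr2:35061413-35061662 on the minus strand for Hc, chr4:148602294-148602543 on the plus strand for Masp2, chr15:6445096-6445345 on the plus strand for C9 and chr4:104766067-104766316 on the plus strand for C8b.
C3: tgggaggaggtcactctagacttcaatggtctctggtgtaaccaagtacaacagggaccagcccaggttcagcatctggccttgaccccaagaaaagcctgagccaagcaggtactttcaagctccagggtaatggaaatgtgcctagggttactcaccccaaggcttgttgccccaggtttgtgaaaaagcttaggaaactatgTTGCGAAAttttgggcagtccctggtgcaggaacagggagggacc
Hc: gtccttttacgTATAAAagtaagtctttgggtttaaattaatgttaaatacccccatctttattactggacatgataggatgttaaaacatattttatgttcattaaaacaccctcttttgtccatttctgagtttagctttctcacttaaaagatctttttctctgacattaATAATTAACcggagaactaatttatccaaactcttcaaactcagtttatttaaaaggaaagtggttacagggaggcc
Masp2: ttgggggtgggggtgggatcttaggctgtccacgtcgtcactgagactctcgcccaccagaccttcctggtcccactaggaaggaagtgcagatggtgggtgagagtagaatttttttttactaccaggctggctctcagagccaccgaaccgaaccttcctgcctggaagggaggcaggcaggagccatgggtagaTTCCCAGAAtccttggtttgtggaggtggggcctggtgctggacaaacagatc
C9: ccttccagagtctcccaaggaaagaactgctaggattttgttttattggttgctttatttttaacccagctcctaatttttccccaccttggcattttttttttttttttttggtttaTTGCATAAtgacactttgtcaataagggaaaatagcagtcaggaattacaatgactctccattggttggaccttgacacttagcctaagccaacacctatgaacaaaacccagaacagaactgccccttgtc
C8b: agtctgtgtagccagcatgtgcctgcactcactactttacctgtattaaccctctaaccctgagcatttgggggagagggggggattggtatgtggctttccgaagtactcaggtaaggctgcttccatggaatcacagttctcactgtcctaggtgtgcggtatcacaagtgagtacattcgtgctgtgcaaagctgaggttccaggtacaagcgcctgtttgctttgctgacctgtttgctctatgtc

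Promoter windows, which run from 250 bases before to 50 bases after the start, were found for 6 of the 8 genes (C3, Hc, C8a, C8b, C9 and Masp2). Both strands were searched for 8 motifs given as letters. TTGCNNAA, a form of the C/EBP site, was found in C3 (TTGCGAAA, 45 bases before the start) and in C9 (TTGCATAA, 132 bases before), and 10.8% of all 32851 RefSeq windows hold it. GTTAATNAT, part of the site of the hepatocyte factor HNF1, was found in Hc alone (on the opposite strand, 77 bases before the start), and 0.801% of all windows hold it. TTCNNNGAA, the STAT motif, was found in C8a (228 bases before) and Masp2 (53 bases before), against 8.3% of windows. TATAAA was found in Hc (239 bases before the start) and in C3 (15 bases into the transcribed part, outside the printed stretch), against 13.6%. None of the 6 windows held GGNNNTTCC (NF-kB, 18.5% of windows), CAAAGTCCA (HNF4, 0.475%), GAAANNGAA (IRF, 8.56%) or CACGTG (E-box, 7.15%). The C8b window held none of the 8 motifs. Such matches are descriptions of letters and not of bound factors. The GC content of the 6 windows was 34.7% in Hc, 40.0% in C8a, 42.7% in C9, 50.3% in C8b, 53.3% in C3 and 57.0% in Masp2, against a median of 52.7% for all windows.

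In WT cells the same 5 genes, Masp2, Cfb, C3, Hc and C8a, had H3K27ac in normoxia and in HR, while C4b, C9 and C8b had none. Among all coding genes H3K27ac lay at 22.6% in normoxia and 30.3% in HR. H3K9ac lay at the same 5 genes in normoxia and at 4 of them in HR, without C8a (31.9% and 36.4% of all coding genes). In KO cells in HR, H3K27ac lay at 7 of the 8 genes, with C4b and C9 added, and H3K9ac at 4, with C8a and without Cfb (37.9% and 35.9% of all coding genes). C3, Hc and Masp2 had a peak in all 6 lists, as did 18.5% of coding genes, and C8b had one in no list, as did 55.0%. Since the genes were chosen with these lists in view, nothing is read from these shares. The 8 genes are also longer than most, with a median length of 31.2 kb against 17.2 kb, and a longer gene meets peaks more often.

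**Figure D1:**
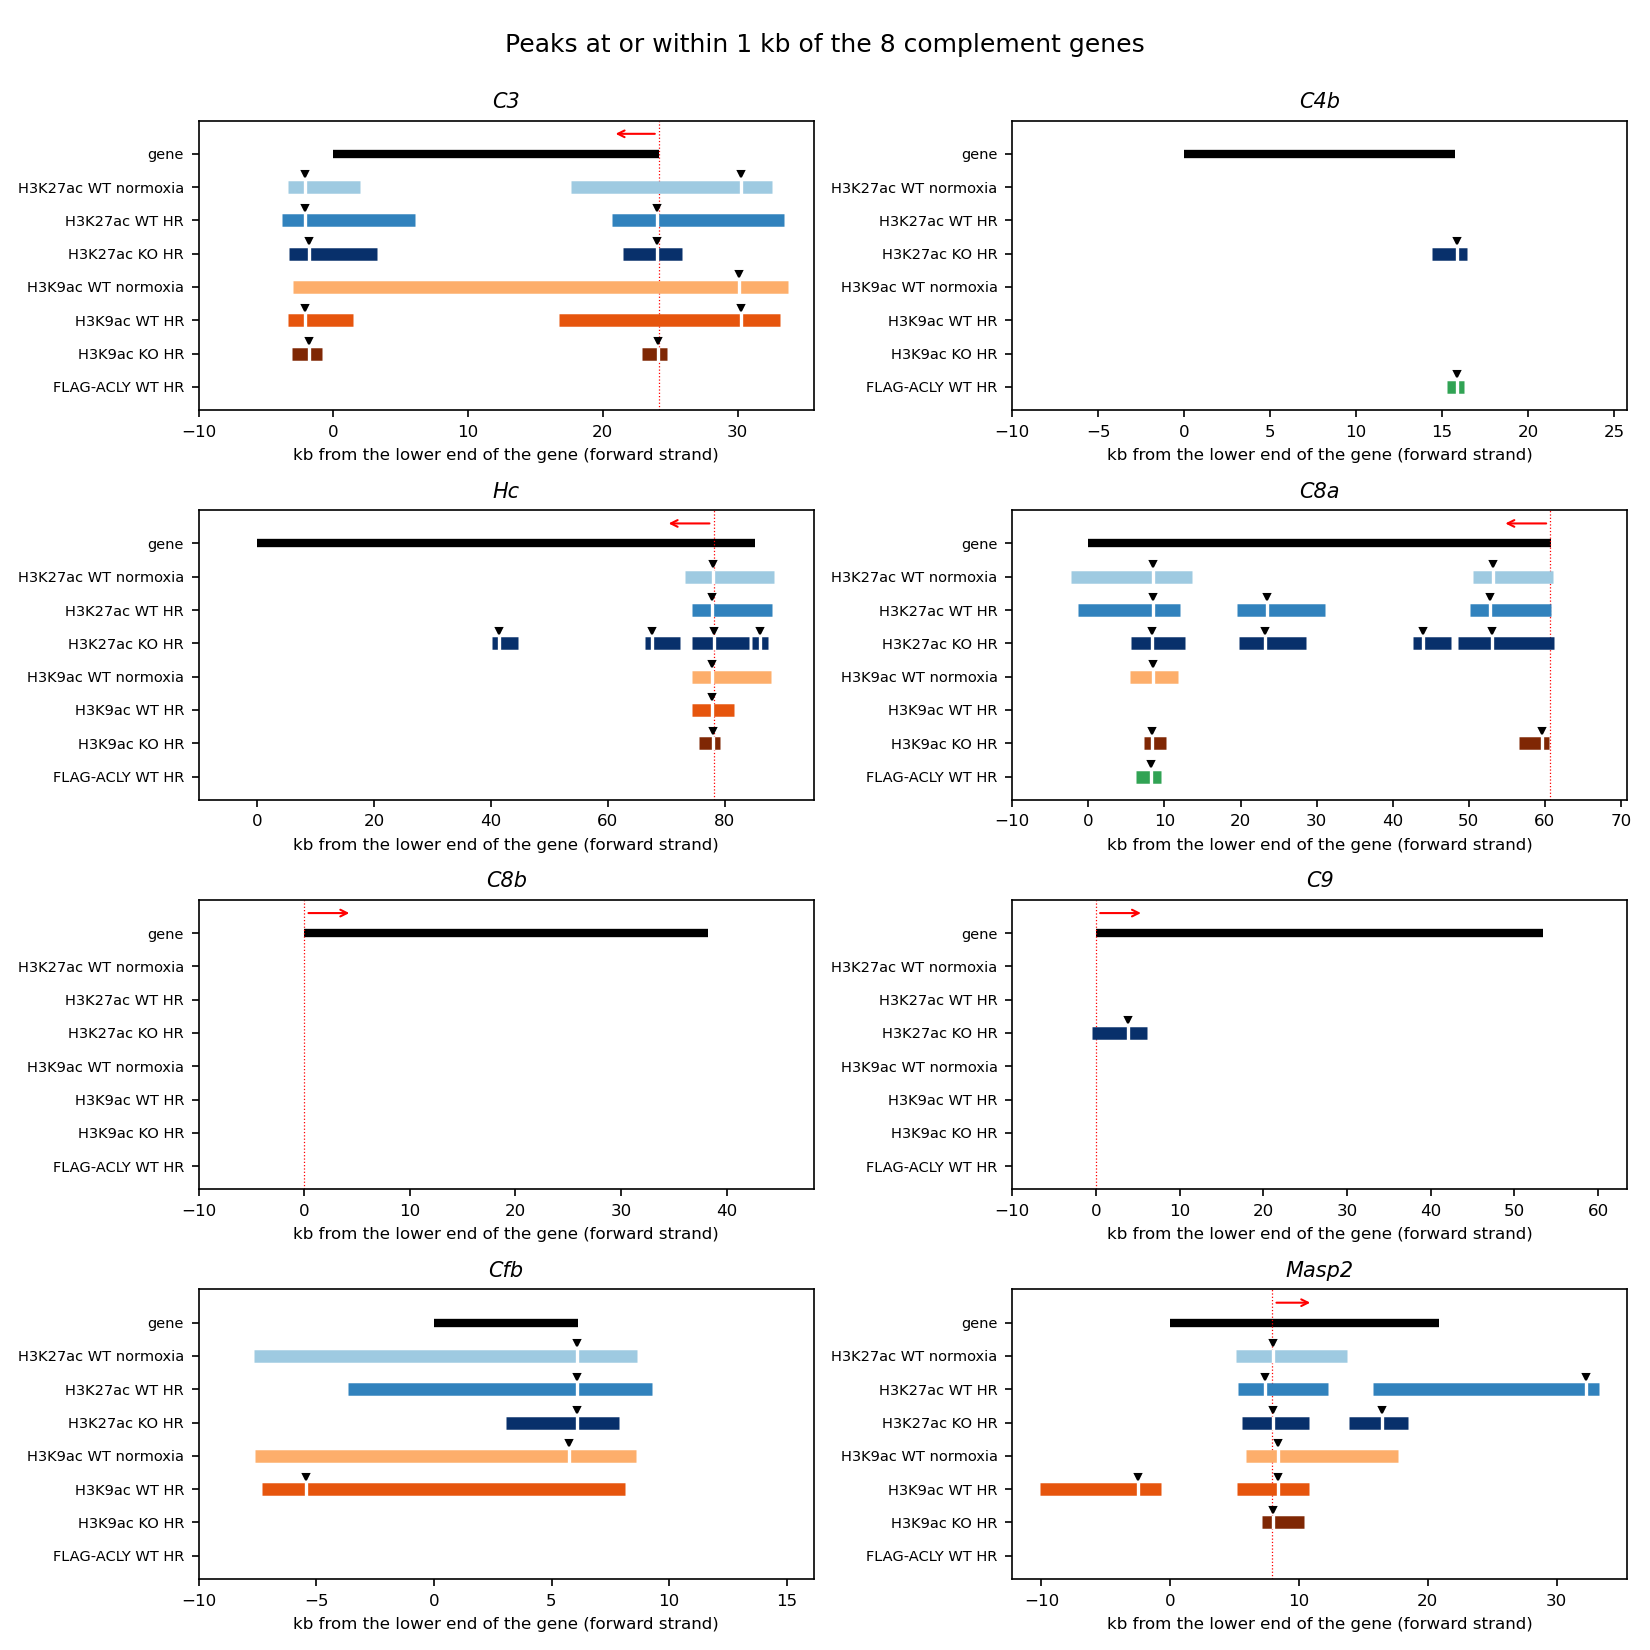
Peaks of each list (bars) at or within 1 kb of each gene, drawn in kb from the lower end of the RefSeq gene (black bar) on the forward strand; black triangles and white ticks mark the place of maximum signal, and red arrows mark the start site and direction of transcription for the 6 genes with a RefSeq promoter window. The peaks that hold the start sites of Hc and Masp2, inside the genes, have their maxima within 528 bp of them, C4b and C9 have acetylation in the KO H3K27ac list alone, and C8b has none.

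Masp2 encodes the protease that mannose-binding lectins carry and that cleaves C4 and C2. Its RefSeq gene spans chr4:148594622-148615499, and its start site lies 7922 bp inside that span, at 148602544. A peak lay over this start site in every acetylation list. The H3K27ac peak was 8.61 kb wide in WT normoxia, 7.0 kb in WT HR and 5.17 kb in KO HR, and its maximum was 92, 528 and 34 bp from the start. The H3K9ac peak was 11.8, 5.64 and 3.19 kb wide, with its maximum 472, 482 and 48 bp away. These peaks stood in the middle of their lists, between the top 38.7% (KO HR H3K27ac) and the top 63.7% (KO HR H3K9ac) by total signal. In WT HR, 2 further peaks with maxima outside the gene lay at it or within 1 kb. An H3K27ac peak at chr4:148610401-148627920, in the top 11.5% of its list, had its maximum 11.4 kb past the upper end of Masp2 and lay over Tardbp. An H3K9ac peak at chr4:148584531-148593900 ended 722 bp before the gene and lay over Srm. In KO HR a second H3K27ac peak, in the top 87.4%, lay 8.53 kb downstream of the start and also reached Tardbp. When only the 1 kb around the 2 ends of each gene was used, Masp2 counted as gaining both marks in HR through these peaks, while by the whole gene it carried both marks in normoxia as well.

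C4b encodes complement C4, which MASP2 and C1s cleave and which binds covalently to targets. Its gene, chr17:34728139-34743902, had no acetylation peak in the 4 WT lists, and the nearest one lay 59.4 kb (H3K27ac, normoxia) to 109 kb (H3K27ac, HR) away. In KO HR an H3K27ac peak of 2.06 kb lay across the upper end of the gene, at chr17:34742538-34744601. It ranked 11852 of 14418 in its list. The WT HR list of FLAG-tagged ACLY held a peak of 1.02 kb at the same end, chr17:34743421-34744440, which ranked 3457 of 3666. The maxima of these 2 peaks were 34 bp apart, 128 and 94 bp past the end of the gene. C4b has a close copy, C4a, which had no entry among the coding genes used, and the sources used here do not say how reads that fit both copies were placed. The peaks at C4b are uncertain for that reason.

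Cfb encodes factor B, the protease of the alternative route. The gene is 6.14 kb long, at chr17:34856374-34862514, and lies 2 bp from Nelfe and 88 bp from C2, the related protease gene of the classical and lectin routes. Its peaks reached several genes at once in WT cells. The H3K27ac peak was 16.3 kb wide in normoxia and 12.9 kb in HR, and the H3K9ac peak 16.2 and 15.4 kb, and each covered the whole gene. The H3K27ac maximum lay 68 bp inside the upper end of Cfb in both WT conditions and 73 bp inside it in KO HR, on the side that faces C2. The H3K9ac maximum lay 398 bp inside that end in normoxia and 5.45 kb below the lower end, at Nelfe, in HR. In KO HR the H3K27ac peak was 4.78 kb wide and covered 49.9% of the gene, and the nearest H3K9ac peak lay 36.6 kb away. Of all coding genes, 3.97% had H3K9ac in WT HR and not in KO HR. By total signal the Cfb peaks were in the top 38.4%, 45.4% and 43.2% of the 3 H3K27ac lists, in the order normoxia, HR and KO. In the WT H3K9ac lists they were in the top 15.2% and 21.4%. By maximum signal they stood lower, in the top 43.8%, 65.1% and 72.9% for H3K27ac and 87.1% and 87% for H3K9ac. By total signal per base the H3K9ac peaks were in the top 74.4% and 89.2%. Both H3K9ac peaks also lay over Skiv2l, Nelfe and C2, so their rank is shared with those genes.

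C3 encodes the component at which the 3 routes meet. Its gene spans chr17:57203967-57228136 and starts at the upper coordinate. In WT normoxia a single H3K9ac peak of 36.8 kb, chr17:57200971-57237730, covered the whole gene. It ranked 111 of 6513, in the top 1.7% by total signal, which grows with width. By maximum signal it stood in the top 37.3%, and by total signal per base in the top 80.5%. Its maximum lay 5.91 kb upstream of the start, at Trip10, and it also reached Gpr108. In WT HR the gene had 2 H3K9ac peaks instead, 4.82 kb wide at its far end and 16.4 kb wide over the start, which together covered 36.8% of it. In KO HR the peak over the start was 1.88 kb wide and ranked near the end of its list (top 96.2%), and the other peak, of 2.24 kb, lay 815 bp beyond the gene. H3K9ac then covered 5.24% of the gene.

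H3K27ac at C3 had 2 peaks in each condition, one over the start and one over the far end. The start peak was 15.0 kb wide in WT normoxia, 12.8 kb in WT HR and 4.43 kb in KO HR. Its maximum lay 6.12 kb upstream of the start in WT normoxia, at Trip10, and 116 and 164 bp into the gene in WT HR and KO HR. The far-end peak had its maximum 1.79 to 2.1 kb beyond the gene in all 3 lists. In KO HR this far-end peak was the leading one (top 15.3%, against the top 48.1% for the start peak), whereas in both WT lists the start peak led. The start peak of the WT lists also reached Trip10 and Gpr108, so its rank is shared with those genes.

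Hc encodes complement C5, whose larger fragment begins the membrane attack complex. The gene spans chr2:34983329-35068506, and the listed start site lies 7094 bp inside its upper end, at 35061412. By total signal Hc had the H3K27ac peaks of highest rank among the 8 genes in each of the 3 conditions, in the top 7.69%, 8.24% and 7.47% of the lists for normoxia, HR and KO. By maximum signal the lead was lost in 2 lists. The Masp2 peak over Tardbp led in WT HR (top 0.727%, against 11.1% for Hc). In KO HR the far-end peak of C3, with its maximum 1.79 kb beyond that gene, led (top 4.71%, against 6.55% for Hc). None of these Hc peaks reached another coding gene. Their widths were 15.3, 13.7 and 9.72 kb. In all 6 lists the maximum of the leading peak lay 46 to 286 bp from the start site. The H3K9ac peak was 13.5 kb wide in WT normoxia, 7.15 kb in WT HR and 3.55 kb in KO HR, and it stood in the top 12.1%, 46.9% and 29.8% of lists that differ in length. KO HR had 3 further H3K27ac peaks in or at the gene, with maxima 36.7 and 10.5 kb into the gene and 8.0 kb upstream of the start.

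C8a and C8b encode the alpha and beta chains of C8, which add to the growing pore. The genes are neighbours 11131 bp apart, C8b at chr4:104766317-104804548 on the plus strand and C8a at chr4:104815679-104876487 on the minus strand, with their far ends facing each other. C8b had no peak in any of the 8 lists, and the nearest acetylation peak lay 8.81 kb (H3K27ac, WT normoxia) to 180 kb (H3K9ac, WT HR) from it. C8a had 2 H3K27ac peaks in WT normoxia, 3 in WT HR and 4 in KO HR, which covered 39.2%, 56.3% and 54.4% of the gene.

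A site inside C8a, 52.2 to 52.5 kb downstream of its start, held a peak in 5 of the 6 acetylation lists and in the FLAG list of WT HR. The H3K27ac peak there was 15.9 kb wide in WT normoxia, 13.4 kb in WT HR and 7.1 kb in KO HR. The H3K9ac peak was 6.37 kb in WT normoxia and 2.86 kb in KO HR, and H3K9ac had no peak at C8a in WT HR. That of WT normoxia ranked 6071 of 6513, near the end of its list. The FLAG peak, chr4:104821961-104825200, ranked 1014 of 3666, and its maximum lay 110 to 235 bp from the 5 acetylation maxima. The other H3K27ac peaks were a peak over the start in each condition, with its maximum 7.59 to 7.89 kb into the gene, a peak 37.3 and 37.5 kb into the gene in WT HR and KO HR, and a peak 16.8 kb into it in KO HR alone. KO HR also had an H3K9ac peak of 3.94 kb with its maximum 1.08 kb into the gene. These other peaks overlapped Fyb2, a gene that shares part of its span with C8a.

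C9 encodes the subunit that polymerises into the ring of the pore. Its gene spans chr15:6445346-6498825, and in the 4 WT acetylation lists the nearest peak lay 207 or 208 kb away. In KO HR an H3K27ac peak of 6.53 kb lay over the start, at chr15:6444873-6451397, with its maximum 3.88 kb into the gene. It ranked 6873 of 14418, and the nearest peak in the H3K9ac list of KO HR lay 208 kb from the gene. C4b and C9 were thus the 2 genes with H3K27ac in KO HR and in none of the other 5 acetylation lists, as were 2.37% of coding genes. Against WT HR alone, 8.31% of coding genes had gained H3K27ac in KO HR and 0.672% had lost it.

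KO HR had 15 H3K27ac peaks at the 8 genes, and 5 of them (33.3%) overlapped no WT HR peak: those at C4b and C9, 2 at Hc and 1 at C8a. Over the whole KO list the share was 33.1%, close to that of the 8 genes. When the overlap had to take at least 0.5 of both peaks, 10 of the 15 were unshared, against 56.6% of the whole list. These 5 peaks ranked 6873 to 13422 of 14418, outside the first 5655, the length of the shortest acetylation list. With every list reduced to that length, KO HR had H3K27ac at 4 of the 8 genes (C3, Hc, C8a and Masp2), C4b and C9 were no longer gained and Cfb was lost. H3K9ac of KO HR against WT HR added C8a (3.46% of coding genes gained) and lacked Cfb. Its C8a peaks ranked in the top 64.8% and 73.0%, and no gain was counted with lists of equal length.

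From normoxia to HR in WT cells the presence of a peak changed at 1 of the 8 genes, for 1 mark. For H3K27ac 0 of the 8 genes were gained and 0 lost, against 8.38% and 0.699% of coding genes, and all 7 peaks of normoxia overlapped a peak of HR, as did 96.0% of the list. For H3K9ac 0 were gained and 1, C8a, was lost, against 5.92% and 1.45% of coding genes. The loss of C8a was kept with the gene body alone and with a window of 5 kb. It was not kept in 2 other settings: 0 genes were lost with lists of equal length or around the start site alone. Neither of these can show it. The normoxia peak ranked 6071 of 6513, outside the first 5655, and its maximum lay 52.2 kb from the start. In the better-ranked 0.5 of each list the lost gene was Masp2 instead. H3K9ac peaks covered 59.3 kb of the 305 kb of the 8 genes in WT normoxia (19.5%), 27.8 kb in WT HR (9.13%) and 14.8 kb in KO HR (4.86%). Over all coding genes they covered 4.64%, 4.38% and 2.28%. H3K27ac covered 59.1, 72.9 and 80.0 kb (19.4%, 23.9% and 26.3%), against 6.37%, 6.86% and 6.15% over all coding genes. Without C8a the H3K27ac shares were 14.5%, 15.8% and 19.2%. C3 alone held much of the H3K9ac value: without it the other 7 genes had 12.5%, 6.75% and 4.83%. With lists of equal length the H3K9ac shares were 17.4%, 8.64% and 2.21%, and those of H3K27ac were 19.4%, 23.9% and 15.4%. The larger H3K27ac share in KO HR was thus not kept. The KO HR lists lose the most peaks to this cut and have the narrowest, so their shares fall by construction. The cut was not made for all coding genes, and nothing about the 8 genes is read from it.

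**Figure D2:**
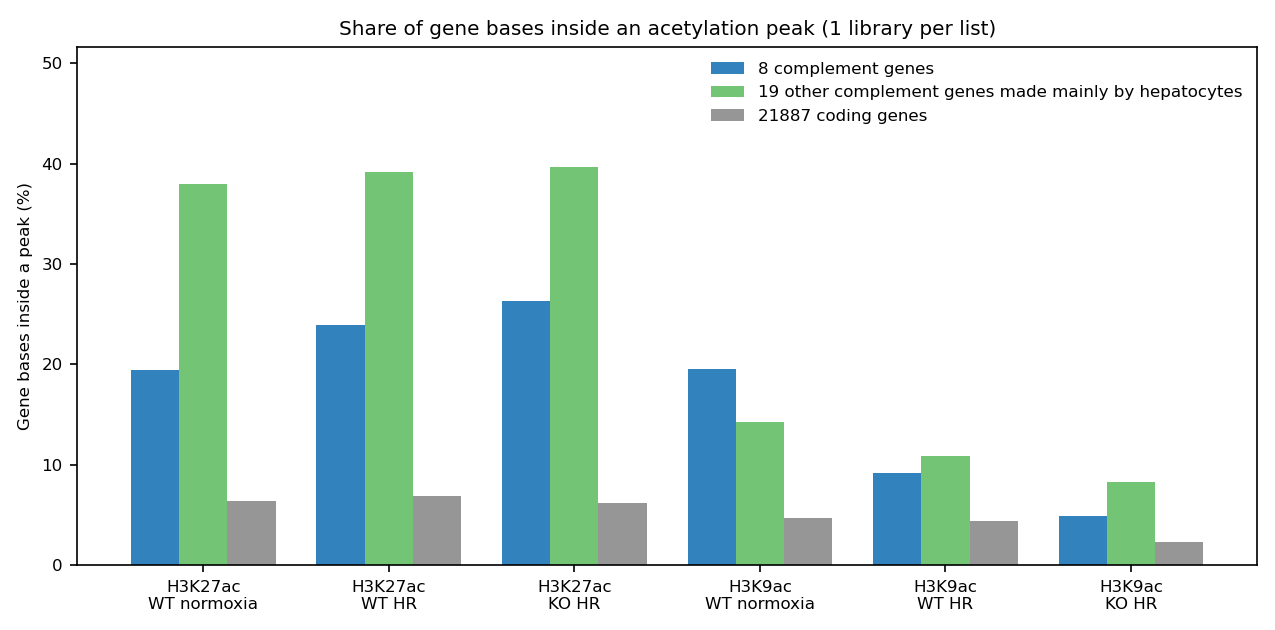
Percent of gene bases inside a peak in each acetylation list, for the 8 genes, for 19 other complement genes made mainly by hepatocytes and for all 21887 coding genes; each bar is 1 library and has no error. The 8 genes stand at 19.5%, 9.13% and 4.86% for H3K9ac and at 19.4%, 23.9% and 26.3% for H3K27ac.

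The narrowing of H3K9ac was seen at each start site that kept a peak. From WT normoxia to WT HR the width of the H3K9ac peak over the start changed by a ratio of 0.446 at C3, 0.48 at Masp2 and 0.529 at Hc. The median over the 4833 genes with such a peak in both lists was 0.918, and 7.08%, 8.71% and 11.3% of those genes had a ratio as low. Wide peaks narrowed more in general. Among genes whose normoxia peak was at least as wide as that of Masp2 the median was 0.734, among those at least as wide as that of Hc it was 0.709, and 24.6% and 32.7% of them had a ratio as low. For C3 the median of the 34 such genes was 0.584, and 41.2% of them had a ratio as low. For H3K27ac the ratios were 0.813 at Masp2, 0.853 at C3, 0.893 at Hc and 1.02 at C8a, around the median of 0.939 over 2971 genes.

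From WT HR to KO HR the H3K27ac peak over the start was wider at C8a (10.7 and 12.6 kb, a ratio of 1.18) and narrower at C3 (0.347), Hc (0.711) and Masp2 (0.738), against a median of 0.739 over 4267 genes. A ratio as low as that of C8a or lower was found at 96.2% of these genes. The H3K9ac ratios were 0.115 at C3, 0.497 at Hc and 0.566 at Masp2, against 0.526 over 4911 genes. A ratio as low as that of C3 was found at 0.977% of genes. Its WT HR peak ran on into Trip10 and Gpr108, and among the 285 genes with a WT HR peak at least as wide the median was 0.219 and 14.7% were as low.

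**Figure D3:**
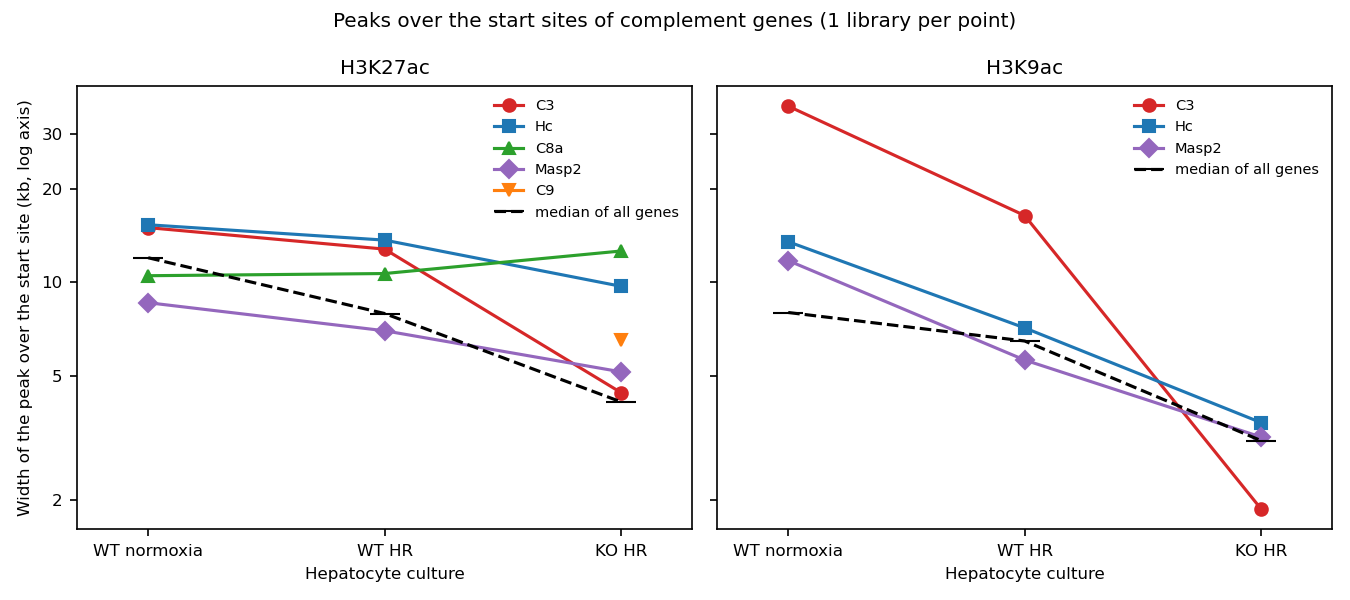
Width in kb (log axis) of the peak that holds the start site, for H3K27ac (left) and H3K9ac (right) for the 2 WT conditions and KO HR; coloured points are single genes, 1 library each, and the black dashed line is the median of all genes with a peak over a start site. H3K9ac at C3 goes from 36.8 to 16.4 and 1.88 kb, and H3K27ac at C8a stays between 10.5 and 12.6 kb.

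FLAG-tagged ACLY had a peak at 2 of the 8 genes in WT HR, C4b and C8a, against 13.2% of coding genes, and at 0 in WT normoxia, where the only peak of the list lay at no coding gene (0.0%). With 1 peak in the normoxia list the 2 conditions cannot be compared. None of the 6 start sites lay inside a FLAG peak, against 9.64% of genes with a start site. Of the 2 FLAG peaks, that at C8a overlapped WT HR H3K27ac and neither overlapped WT HR H3K9ac; over the whole FLAG list 47.9% and 50.0% did. The peaks nearest outside the limit of 1 kb were a KO HR H3K9ac peak 1588 bp and a WT HR H3K9ac peak 1662 bp from Masp2 and a FLAG peak 1665 bp from C3. The 2 peaks inside it that did not touch a gene were those already given, 722 bp from Masp2 and 815 bp from C3.

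Other complement genes were taken from a fixed list, of which 37 of 38 were found among the coding genes. Of the 19 made mainly by hepatocytes, H3K27ac lay at 13 in WT normoxia, 15 in WT HR and 16 in KO HR, against 22.6%, 30.3% and 37.9% of all coding genes. H3K9ac lay at 11, 10 and 11 of them, against 31.9%, 36.4% and 35.9%. Those with a peak in all 6 acetylation lists included C1s1, a protease of the classical route, Cfi, the protease that inactivates C3b, Masp1, Clu, Cpn1 and Cfhr2. C8g, the third chain of C8, and Mbl2, a mannose-binding lectin, had H3K27ac in WT HR and not in WT normoxia, and Serping1, the C1 inhibitor, had it in KO HR alone. H3K9ac was absent in WT HR and present in WT normoxia at C1ra and C4bp, and the reverse held at Mbl2. From WT HR to KO HR, H3K9ac was gained at C4bp and Vtn and lost at C2. The leading peaks at C2 were the same as those at Cfb, so this loss is the one already given for Cfb. C6, a pore component, had H3K27ac in the 3 conditions and H3K9ac in none, and Mbl1 and Colec11 had neither mark. H3K9ac covered 14.2%, 10.9% and 8.28% of the bases of these 19 genes in normoxia, HR and KO, and H3K27ac 38.0%, 39.2% and 39.7%. The covered share of H3K9ac was thus lower in HR than in normoxia and lowest in KO, as over the 8 genes. The order was the same over all coding genes (4.64%, 4.38% and 2.28%) and over the 8 hepatocyte markers (34.0%, 27.7% and 18.5%).

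Of 9 complement genes made mainly by other cells, 8 had no acetylation peak, against 55.0% of all coding genes, among them C1qa, C1qb and C1qc, the C1q chains made by macrophages, and C7, and Colec12 was the exception. Of 9 receptors and membrane regulators, 6 had none, near that background, among them the anaphylatoxin receptors C3ar1, C5ar1 and C5ar2. Cd59a, which blocks the pore, had both marks in all conditions, Cd46 had H3K9ac in WT normoxia alone and H3K27ac in all 3, and Cr1l had both marks except H3K27ac in WT normoxia. FLAG peaks of WT HR lay at 3 of the 19 hepatocyte genes (Cfi, Vtn and Cpn2) and at 0 of the other 18, against 13.2% of all coding genes. With counts this small no difference between these groups is read.

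**Figure D4:**
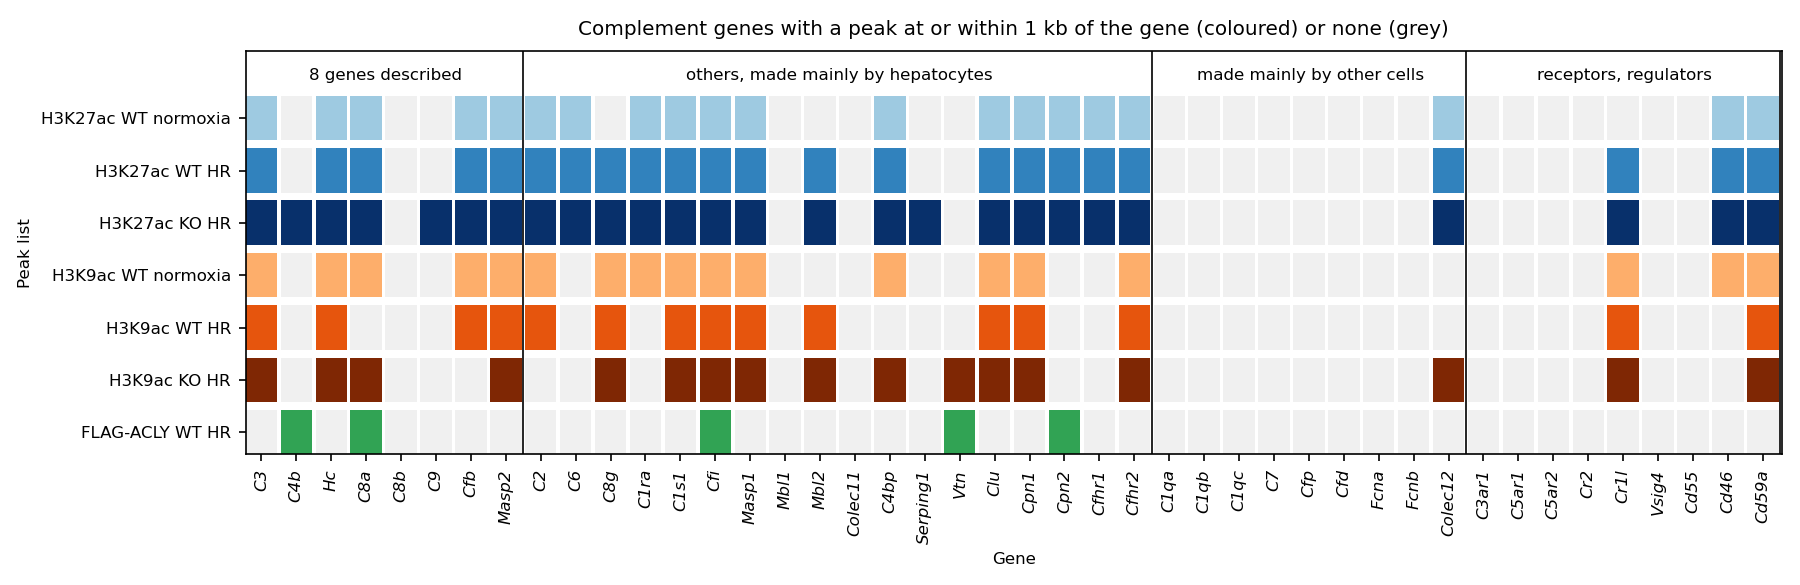
Presence (coloured) or absence (grey) of a peak at or within 1 kb of each complement gene, by peak list (rows) and gene (columns). The 8 genes at the left and 18 further genes made mainly by hepatocytes carry most of the peaks, and 8 of 9 genes made mainly by other cells and 6 of 9 receptors and regulators have no acetylation.

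For C3, Hc, C8a and Cfb, which had a peak in at least 3 acetylation lists, the coding gene of most similar pattern was found by Euclidean distance over the 6 lists between percentiles of the leading peak by total signal (0 for no peak), leaving out genes that share a peak. Hc was closest to Adprm, at a distance of 3.27 against a median of 202 over all genes. C3 was closest to Slc12a7 (12.1, median 196), C8a to Efemp1 (15.4, median 137) and Cfb to Zc3h12a (21.8, median 153). As 55.0% of coding genes had no acetylation peak, each of these medians is the distance to a gene without any peak. The closest gene was picked from all coding genes, so no particular likeness is read from these distances.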

How the data were processed

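The authors deposited 1 peak list for each of 8 CUT&RUN samples, with a total signal and a maximum signal per peak on a scale that no source used here states. Signal served to order the peaks of each list and was not compared between lists. Per the submitters' processing notes the build was mm10 and the tools were Trimmomatic and kallisto; no source used here names the aligner or peak caller. The read depth of these samples is unknown. The 3 IgG samples and the RNA files were not used here, so the planned RNA tests were not run, and protein sequences were not analysed here. Samples were grouped by their titles.

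Overlap (at least 1 base) of peaks with the 21887 coding genes of chromosomes 1 to 19, X and Y in RefSeq's GRCm38.p6 table, widened by 1 kb, was computed in Python 3.11.15 with pandas 2.3.3 and checked on simulated intervals; start sites were available for 17492 of these genes. Coordinates count from 1. Ranks are by total signal. The top percent is 100 times the rank over the list length. The 8 genes, the gene lists and the motifs were chosen with earlier results of these data known. All 8 genes are named whatever their values. Of the other complement genes, the plan allowed naming those whose pattern differs between conditions. Some genes with the same pattern in all acetylation lists are named here beyond that plan. One gene of the complement list and the gene most like Masp2 are not reported here. Alternatives changed the window, the peak selection, the overlap and the ranking.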

Additional observations from a re-analysis of the deposited data

How the results depend on the processing

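Of 164 recomputed values, 125 stayed within 1.5 times and 39 did not. With 1 library per list none has an error, and read depth is unknown. Several settings shrink or lengthen the peak or gene intervals, so they change counts by construction. No paired analysis was possible because each antibody and condition had 1 library and no result comes from a test. The RNA alternatives (DESeq2, filters, the block, leaving out libraries) were not run because the RNA was not analysed here.

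When 1 peak had to span at least 0.5 of gene and window, WT normoxia and WT HR H3K27ac each had 1 gene with a peak (Cfb), KO HR had 0 for either mark, WT normoxia H3K9ac 3, WT HR H3K9ac 1 and FLAG 0; H3K9ac losses in WT HR were 2 (C3 and Masp2), KO H3K27ac gains 0 and losses 1 (Cfb), and KO H3K9ac gains 0. With lists of equal length KO HR H3K27ac had 4 genes, with 0 gained and 1 lost (Cfb), the H3K9ac loss of C8a in WT HR became 0 and its KO gain 0, and the covered share was 15.4% (H3K27ac) and 2.21% (H3K9ac) in KO HR. The better-ranked 0.5 of each list left 1 gene in KO HR H3K9ac (Hc) and 1 in FLAG (C8a), with 1 H3K27ac gain in WT HR (Masp2) and 1 in KO (C9), and 0 H3K9ac gains and 2 losses in KO (C3 and Cfb); the 1 H3K9ac loss in WT HR was then Masp2 and not C8a. Around the start site alone, which C4b and Cfb lack, WT normoxia H3K9ac had 3 genes and FLAG 0, the H3K9ac loss in WT HR was 0, the KO H3K27ac gain 1 (C9) and the KO H3K9ac loss 0. An overlap of 0.5 of both peaks left 5 of 15 KO H3K27ac peaks shared with WT HR (43.4% of the list), 2 of 5 WT normoxia H3K9ac peaks shared with WT HR (80.0%) and 1 of 6 WT HR H3K9ac peaks shared with KO HR (48.1%). A window of 5 kb gave FLAG 4 genes, with C3 and Masp2 added.

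Chosen after seeing the data, the 1 kb around the gene ends alone gave WT normoxia H3K9ac 3 genes, KO HR H3K9ac 2 and FLAG 1, with 1 gain in WT HR for H3K27ac and 1 for H3K9ac (Masp2 in both), and 1 H3K27ac (Masp2) and 2 H3K9ac losses (Cfb and Masp2) in KO; the 1 H3K9ac loss in WT HR was then Hc and not C8a. Leaving out 1 gene at a time, also chosen after seeing the data, moved the covered share past 1.5 times for WT HR H3K27ac without C8a (15.8%) and WT normoxia H3K9ac without C3 (12.5%). Ranked by maximum signal, 30 of 32 leading peaks changed rank beyond the 95% Wilson interval, and of the 32, 24 moved away from the top and 8 toward it. By total signal per base all 32 changed, 25 away from the top and 7 toward it. The interval served only as a cut-off for calling a change. With 1 library per list it measures no spread of a rank.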

Other observations

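Several peaks at the complement genes also lay over a neighbouring gene. The WT peaks over the start of C3 ran on into Trip10, 5084 bp from C3, and Gpr108, and the maximum of 3 of these 4 peaks lay 5.91 to 6.12 kb upstream of C3. In KO HR the peak at the C3 start held no other coding gene, for H3K27ac and for H3K9ac. The WT peaks at Cfb reached C2 and Nelfe, and Skiv2l as well in 3 of 4 lists, whereas the KO H3K27ac peak reached C2 alone. Hc peaks overlapped no other coding gene in any list.

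The genes beside the bare ones differed in their marks. Dab2, 4631 bp from C9, had no peak in any list. Fyb, a gene 23971 bp from C9 on the other side, had H3K27ac in KO HR alone, as C9 and 2.37% of coding genes did. Those distances are between genes: apart from its own peak, the KO HR H3K27ac peak nearest to C9 lay 146 kb away. Tnxb, 8324 bp from C4b, had no peak in any list. These neighbours were looked up after the values of C9 and C4b were seen.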
